A study of Zea mays with 9 samples.

Results

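The regions described here are the ZmbZIP17 peaks of maize leaf protoplasts that overlap a ZmbZIP60 peak. The peaks were chosen by their called intervals, the start and end in each list. A ZmbZIP17 peak was taken when its interval shared at least 1 bp with the interval of any ZmbZIP60 peak on the same chromosome. This held for 221 of the 282 ZmbZIP17 peaks (78.4%; exact 95% binomial interval 73.1 to 83.0, which treats neighbouring peaks as independent). Their 187 partners were 6.15% of the 3042 ZmbZIP60 peaks. Both shares follow from the rule, so nothing is read from them. Because the rule used the calls of both pull-downs, every value below is a description and no test was made.

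bZIP17 and bZIP60 are basic leucine zipper transcription factors of the plant unfolded protein response, which raises the folding capacity of the endoplasmic reticulum (ER) under stress. bZIP17 is held in a membrane and released by proteolysis. bZIP60 becomes a nuclear factor when the stress sensor IRE1 splices its mRNA. Factors of this family bind DNA as dimers, and in Arabidopsis these ER stress factors are known to act on overlapping sets of genes. In chromatin immunoprecipitation, a point source of binding gives a narrow peak whose summit marks the most covered position. Agreement in interval and agreement in summit are therefore separate properties of a shared region.

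Protoplasts came from leaves of the inbred line B73 and carried a GFP fusion of ZmbZIP17 (3 libraries), a GFP fusion of ZmbZIP60 (3 libraries) or the GFP vector alone (3 libraries), and the chromatin was precipitated through the GFP tag. The fusions are written ZmbZIP17C and ZmbZIP60C in the sample titles, where the C is not explained, and another label calls the first factor bZIP91. The seedlings had 2 days of germination and 7 days of growth, and the labels of all 3 groups give a treatment of seedlings with tunicamycin, an inhibitor of N-glycosylation, at 5 mg per ml in DMSO. No group without tunicamycin was compared. The factors were introduced genes in isolated leaf cells, and the promoter that drove them is not given in the sources used here. Merged by group, 126318506 ZmbZIP17 tags, 18726110 ZmbZIP60 tags and 47193255 vector control tags entered the peak calling. The name of the merged ZmbZIP60 input carries only the library numbers 1 and 3. Peaks were called once per factor on merged libraries, so no value has a spread between replicates. Coordinates are 1-based on version 4 of the B73 assembly, as the contig names show. Genes and DNA sequence under the peaks were not analysed here.

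The overlapping peaks were gathered in few places. Joined where at most 10000 bp separated them, the 221 peaks formed 71 loci. Of these, 40 loci held a single overlapping peak, 18 held 2 to 4 and 13 held 5 or more. The 13 crowded loci held 137 of the 221 peaks (62.0%). Chromosome 4 held 55 of the peaks in 11 loci and chromosome 9 held 52 in 15 loci, whereas chromosomes 8 and 10 held 1 each. The share of a chromosome's ZmbZIP17 peaks that overlapped was 96.3% on chromosome 9 (52 of 54) and 12.5% on chromosome 10 (1 of 8). On chromosome 4 it was 76.4% (55 of 72), close to the 78.4% over all ZmbZIP17 peaks. Chromosome 8 had only 3 ZmbZIP17 peaks in all.

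Most overlapping ZmbZIP17 peaks were shorter than their partner and lay within it. Each ZmbZIP17 peak was set against the ZmbZIP60 peak with which it shared the longest stretch. The 221 ZmbZIP17 peaks had a median length of 361 bp (quartiles 264 and 612 bp), and the 187 ZmbZIP60 partners a median of 571 bp (quartiles 319 and 1316.5 bp). The ZmbZIP17 peak was the shorter of the pair in 177 cases, the longer in 43 and of equal length in 1. Its length over that of the partner had a median of 0.66 (quartiles 0.27 and 0.95). In 66 pairs this ratio lay between 0.8 and 1.25, and in 47 pairs the ZmbZIP17 peak had less than 0.25 of the partner's length. In total, 91.7% of the bases in the ZmbZIP17 peaks (109759 of 119743 bp) and 54.7% of the bases in the ZmbZIP60 partners (109759 of 200621 bp) were shared.

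Nesting was the commonest arrangement. In 129 pairs (58.4%; exact 95% binomial interval 51.6 to 64.9, which treats neighbouring peaks as independent) the ZmbZIP17 peak lay wholly inside the ZmbZIP60 peak. In 23 pairs (10.4%) the ZmbZIP17 peak reached past the partner at both ends or up to them. The other 69 pairs (31.2%) were shifted, 29 toward the lower and 40 toward the upper coordinates. The shifts were mostly small. The part of a shifted ZmbZIP17 peak outside its partner had a median of 36 bp (quartiles 16 and 93 bp), and 60 of the 69 kept at least 50% of their length inside. Median ZmbZIP60 lengths were 1154 bp where the ZmbZIP17 peak lay inside and 299 bp where it lay around. The definitions favour this direction, since a nested peak cannot be longer than its partner, nor an enclosing one shorter. The ZmbZIP17 lengths of nested and enclosing pairs were close, with medians of 355 and 388 bp. Close agreement at both ends was rare, with 5 pairs whose starts and ends both lay within 10 bp and 47 within 50 bp.

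**Figure D1:**
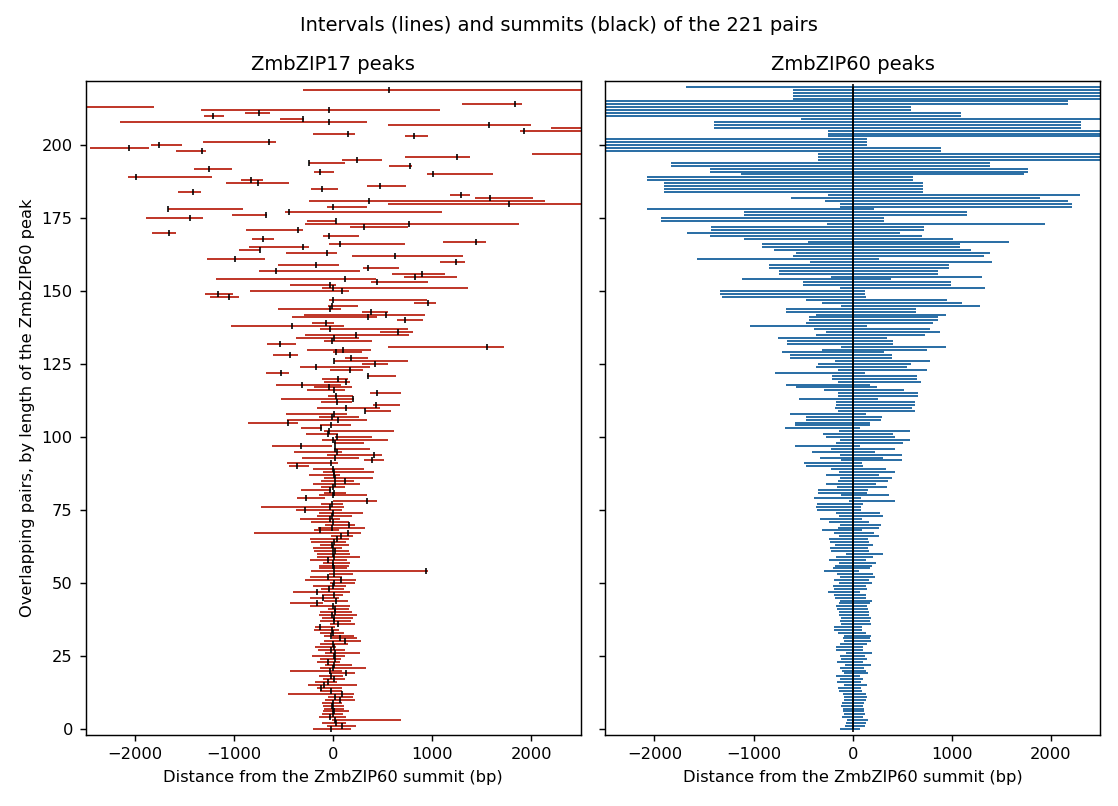
Intervals of the 221 pairs as horizontal lines, with summits as black ticks, for ZmbZIP17 peaks (left) and their ZmbZIP60 partners (right), both in bp from the ZmbZIP60 summit and cut at 2500 bp to each side. Pairs run from the shortest ZmbZIP60 peak at the bottom to the longest at the top, each pair on its own line, and ZmbZIP17 summits lie close to the centre in the lower lines and scatter to both sides in the upper ones.

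**Figure D2:**
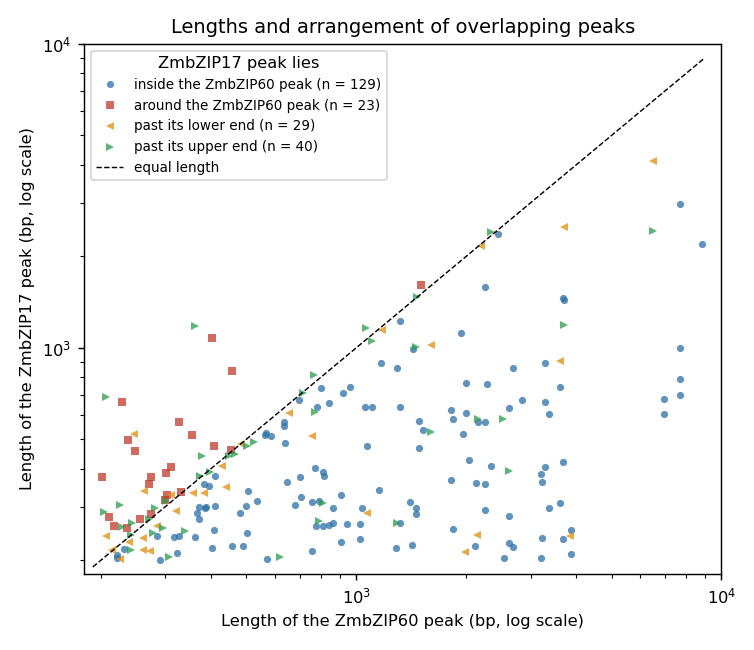
Length of each ZmbZIP17 peak against that of its ZmbZIP60 partner in bp, both on log scales, with 1 point per pair and symbols for the arrangement. Of the 221 points, 177 lie under the dashed line of equal length, and the nested pairs (blue) reach the longest ZmbZIP60 partner, of 8833 bp.

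The extremes show how unlike the pairs were. The longest ZmbZIP17 peak relative to its partner, 688 bp at chromosome 3, 81482791 to 81483478, overlapped a ZmbZIP60 peak of 207 bp (ratio 3.32). It was followed by chromosome 4, 160301952 to 160303130, with 1179 bp over 362 bp (ratio 3.26), and by chromosome 4, 115286523 to 115287183, with 661 bp over 229 bp (ratio 2.89). At the other end stood chromosome 2, 79934090 to 79934298, where 209 bp lay inside a ZmbZIP60 peak of 3876 bp (ratio 0.054). Next came chromosome 2, 79971725 to 79971965, with 241 bp against 3843 bp (ratio 0.063), and chromosome 6, 54017144 to 54017346, with 203 bp against 3212 bp (ratio 0.063). These 3 ZmbZIP17 intervals were all close to the shortest listed length of 200 bp.

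The summit of a ZmbZIP17 peak nearly always lay inside the ZmbZIP60 interval, and the reverse held less often. Much of this follows from the intervals. In the 129 nested pairs the ZmbZIP17 summit had to lie in the partner, and in the 23 enclosing pairs the reverse had to hold. The ZmbZIP17 summit fell in the partner in 215 of 221 pairs (97.3%), and the ZmbZIP60 summit fell in the ZmbZIP17 peak in 143 (64.7%). Both held in 141 pairs, which had a median ZmbZIP60 length of 441 bp and summits a median of 28 bp apart. In 74 pairs the ZmbZIP17 peak lay over a stretch of the ZmbZIP60 peak away from its summit. There the median ZmbZIP60 length was 2145 bp and the summits were a median of 756.5 bp apart. In 4 pairs neither summit was shared.

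Summit distances were widely spread. Their median was 90 bp, with quartiles of 17 and 468 bp. The order-statistic 95% interval of the median was 50 to 136 bp, which treats neighbouring pairs as independent. Of the 221 pairs, 38 had summits at most 10 bp apart, 96 at most 50 bp, 135 at most 200 bp and 189 at most 1000 bp. The 32 pairs beyond 1000 bp came from 25 ZmbZIP60 peaks in 19 loci, none of these peaks shorter than 1061 bp. There was little lean to either side, since the ZmbZIP17 summit lay at the higher coordinate in 115 pairs, at the lower in 100 and at the same base in 6. The median signed distance, ZmbZIP17 minus ZmbZIP60, was 3 bp.

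Summit distance went with the length of the ZmbZIP60 peak. With partners up to 500 bp long, 59 of 83 pairs (71.1%) had summits within 50 bp and the median distance was 19 bp. With partners of 501 to 1000 bp, 23 of 44 did (52.3%), with a median of 43.5 bp. With partners of 1001 to 2000 bp, 9 of 40 did (22.5%), with a median of 351.5 bp, and with longer ones 5 of 54 (9.26%), with a median of 1108.5 bp. A short interval bounds how far apart summits can lie, so the distance is also given as a share of the partner's length. By that measure the medians were 7.12%, 6.30%, 24.0% and 34.3% in the same order, and short and long partners still stood apart. Across the 221 pairs, Spearman's rho of summit distance with ZmbZIP60 length was 0.69. The pairs are not independent, since neighbours share loci, partners and libraries.

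**Figure D3:**
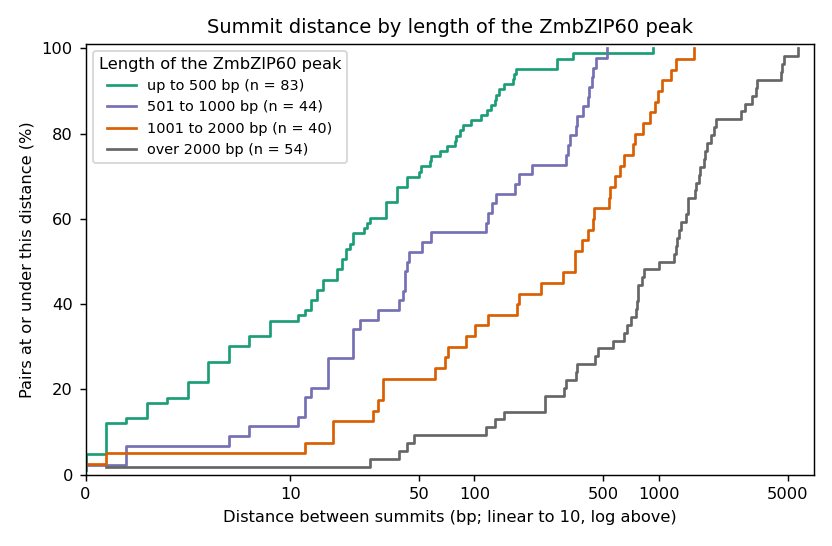
Cumulative share of pairs (percent) against the distance between ZmbZIP17 and ZmbZIP60 summits (bp, linear to 10 and logarithmic above), with 1 line per class of ZmbZIP60 length. At 50 bp the line for partners up to 500 bp stands at 71.1% and that for partners over 2000 bp at 9.26%.

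In short pairs the summits were about as close as the interval centres. In the 75 pairs where both peaks were at most 500 bp long, the summits were a median of 15 bp apart (quartiles 6 and 50.5 bp) and the midpoints 24 bp. The summits were nearer than the midpoints in 39 of the 75. In the 94 pairs with a partner over 1000 bp, the median was 647 bp between summits and 506 bp between midpoints. Where the ZmbZIP17 summit lay inside a partner over 2000 bp, it was in the outer 20% at either end of that partner in 28 of 53 pairs and in its middle 20% in 12. In partners up to 500 bp the counts were 7 and 40 of 80. Both ends together span more of a partner than its middle 20%, so end and middle counts cannot be compared directly.

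The pairs with coincident summits were spread over several loci. The 5 named first among those at 0 bp, ranked by ZmbZIP17 significance, lay on chromosomes 4 and 9. They were chromosome 9, 90558905 to 90559579 (675 bp in a partner of 698 bp), chromosome 4, 156988279 to 156988575 (297 in 386 bp), and chromosome 9, 6548620 to 6548893 (274 in 372 bp). The other 2 were chromosome 4, 115335617 to 115336075, whose 459 bp enclosed a partner of 248 bp, and chromosome 4, 160279382 to 160280375 (994 in 1431 bp). Only the last of these 5 had a partner over 1000 bp long.

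The pairs with the most distant summits rested on very long ZmbZIP60 peaks. The distance reached 5688 bp at chromosome 4, 160308703 to 160309400, and 4686 bp at 160307758 to 160308544, both in the same ZmbZIP60 peak of 7696 bp. It was 4760 bp at chromosome 2, 79848667 to 79850866, inside the longest partner, of 8833 bp. It was 4633 bp at chromosome 3, 26960125 to 26964233, itself the longest ZmbZIP17 peak at 4109 bp, and 3420 bp at chromosome 9, 6523098 to 6523773. In these 5 pairs, partners were 6505 to 8833 bp long.

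Overlap was usually exclusive, but some ZmbZIP60 peaks held several ZmbZIP17 peaks. In 147 pairs (66.5% of the 221 ZmbZIP17 peaks) each peak met only the other, and the median summit distance was 38 bp. A further 32 ZmbZIP60 peaks met 2 or more ZmbZIP17 peaks each. They met 71 ZmbZIP17 peaks, and the 70 of these that shared their longest stretch with such a peak had a median summit distance of 504.5 bp. Counted once per ZmbZIP60 peak, by its nearest ZmbZIP17 summit, the median over the 187 partners was 43 bp. The ZmbZIP17 peaks together covered a median of 76.9% of a partner's length, all of it in 24 partners and under 50% in 46.

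The ZmbZIP60 peak with the most ZmbZIP17 peaks was chromosome 4, 160303045 to 160310740. Its 7696 bp met 5 of them, at 160301952, 160303340, 160306484, 160307758 and 160308703 (starts), with lengths of 1179, 2976, 1002, 787 and 698 bp. They covered 72.1% of it, and its own summit was 538 bp from the nearest ZmbZIP17 summit. The ZmbZIP60 peak at chromosome 1, 286105492 to 286108104 (2613 bp) met 4 ZmbZIP17 peaks of 227 to 634 bp, with summits 115 to 1411 bp from its own. Another 5 ZmbZIP60 peaks met 3 each. They started at chromosome 3, 26970922 and 26975647, and at chromosome 9, 6532650, 6539242 and 90535834. These 7 ZmbZIP60 peaks were 2148 to 7696 bp long, and each met separate intervals in the ZmbZIP17 list.

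The reverse case, a ZmbZIP17 peak over 2 ZmbZIP60 peaks, occurred 8 times. These ZmbZIP17 peaks were 839 to 2499 bp long. They started at chromosome 3, 26964707, 26970165, 26974516 and 81490505, at chromosome 4, 160301952, at chromosome 5, 216127995, and at chromosome 9, 77038190 and 90557603. The nearer of the 2 ZmbZIP60 summits was within 50 bp in 4 of the 8 and 1379 bp away in the most distant case. Where both kinds met, chains arose. The chain at chromosome 3, 26970165 to 26977828, linked 5 ZmbZIP17 and 3 ZmbZIP60 peaks over 7664 bp. In 3 further chains, at chromosome 3, 26960125 and 81489821, and at chromosome 4, 160301879, at least 2 peaks of each list were linked.

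The crowded loci differed in how the peaks fitted together. Among the 13 loci with 5 or more overlapping ZmbZIP17 peaks, the median summit distance per locus ran from 10.5 to 645 bp and the median length ratio from 0.25 to 1.03. In 5 of them the median distance was at most 50 bp. Control background is the local vector control level behind the fold at the ZmbZIP17 summit, in tags per 200 bp, called control tags below. It had medians of 28.5 to 68.9 in the 13 loci.

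By median summit distance of the overlapping pairs, the closest fit was in the neighbouring pair of loci on chromosome 4 near 115 Mb. At 115311046 to 115348466, 14 ZmbZIP17 peaks met 14 ZmbZIP60 peaks, with a median summit distance of 10.5 bp, a median length ratio of 0.98 and a median background of 31.0 control tags. The summits were within 50 bp in 10 of the 14 pairs, from 0 bp at 115335617 to 115336075 up to 386 bp at 115313139 to 115313343. Of these 14, only 4 were nested inside the partner, 5 enclosed it and 5 were shifted. At 115256189 to 115287183, 10 ZmbZIP17 peaks met 10 ZmbZIP60 peaks, with a median distance of 14.5 bp, a median ratio of 1.03 and 28.5 control tags. Distances there ran from 1 bp at 115284505 to 115284985 up to 96 bp at 115262514 to 115263010. The overlapping peaks in these loci were short, with median lengths of 353.5 and 265 bp for ZmbZIP17 and 284 and 281.5 bp for the ZmbZIP60 partners. The fit is that of overlapping peaks alone. In the first span, 7 of 21 ZmbZIP17 peaks and 2 of 16 ZmbZIP60 peaks had no partner. In the second, 4 of 14 and 5 of 15 had none.

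A loose fit was seen on chromosome 9 at 6516464 to 6554870. There all 20 ZmbZIP17 peaks of the span had a partner. They met 12 ZmbZIP60 peaks, and 18 of the 20 were nested. Summits were a median of 563.5 bp apart, from 0 bp at 6548620 to 6548893 up to 3420 bp at 6523098 to 6523773. The median length ratio was 0.25, with median lengths of 445 bp for ZmbZIP17 peaks and 2468.5 bp for their partners, at a median of 68.9 control tags. The 20 ZmbZIP17 peaks covered 12935 bp, against 31459 bp in the 17 ZmbZIP60 peaks that touched this span, partners or not.

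The locus with the most overlapping peaks, chromosome 4, 160279382 to 160316742, held 22 ZmbZIP17 peaks over 16 ZmbZIP60 partners. It mixed both kinds of fit. Its median distance was 292.5 bp, with 6 pairs within 50 bp, and its extremes were 0 bp at 160279382 to 160280375 and 5688 bp at 160308703 to 160309400. Of the 22, 15 were nested, 2 enclosed the partner and 5 were shifted. On chromosome 2, 79934090 to 79977161, 20 ZmbZIP17 peaks met 16 ZmbZIP60 peaks at a median distance of 56.5 bp, from 1 bp at 79950515 to 79950813 up to 1449 bp at 79942983 to 79943552. This locus was the widest, at 43072 bp, and its 20 overlapping ZmbZIP17 peaks filled 19.6% of it.

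**Figure D4:**
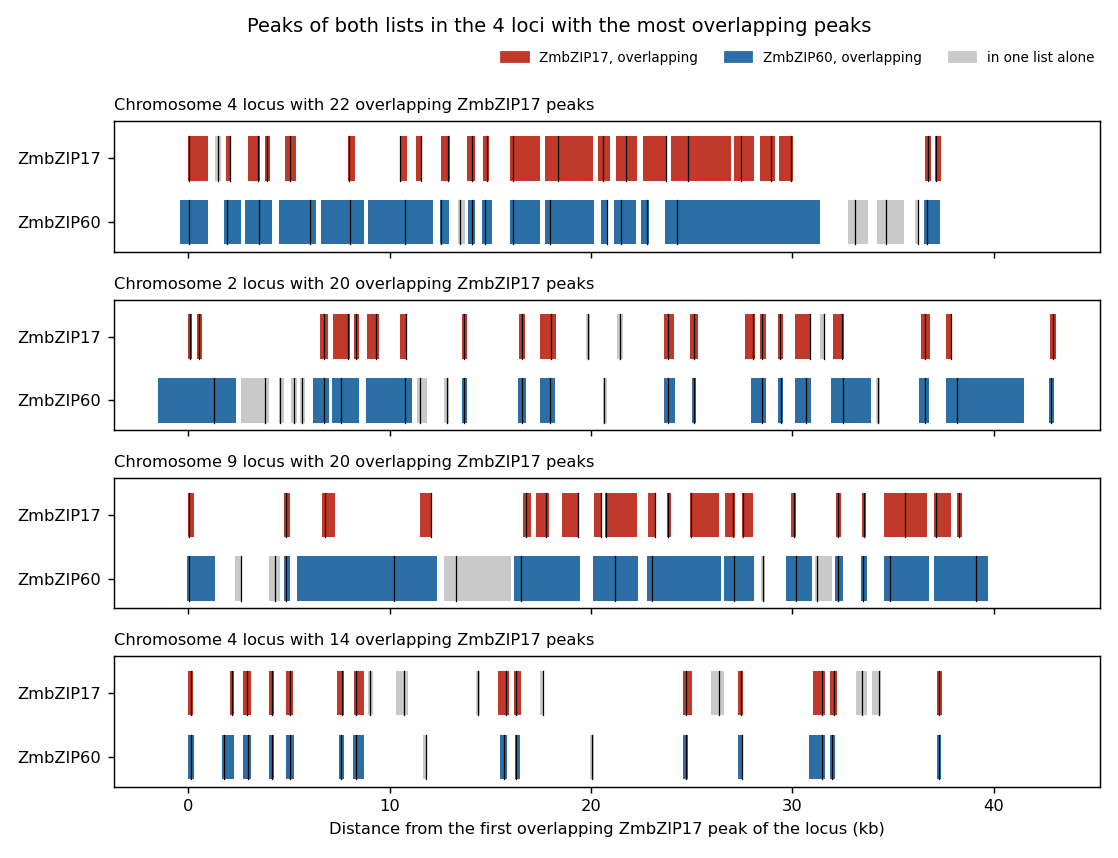
Peaks of the ZmbZIP17 list (upper row) and the ZmbZIP60 list (lower row) in the 4 loci with the most overlapping ZmbZIP17 peaks, in kb from the first of them, with summits as black lines and peaks with no partner in grey. In the chromosome 4 locus with 14 overlapping peaks, these are short intervals in register, with a median summit distance of 10.5 bp. The chromosome 9 locus shows several ZmbZIP17 intervals above single long ZmbZIP60 intervals, with a median of 563.5 bp.

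The other crowded loci held 5 to 10 overlapping peaks. The locus at chromosome 3, 26960125 to 26977828, was the most densely covered, with 10 ZmbZIP17 peaks filling 83.4% of its span and 7 of the 10 shifted against their partner. Summits there were 16 bp apart at 26967358 to 26967759 and 4633 bp apart at 26960125 to 26964233, with a median of 468.5 bp. At chromosome 3, 81482791 to 81494311, 8 peaks had a median distance of 241.5 bp, from 1 bp at 81489891 to 81490299 up to 1777 bp at 81490505 to 81492901. At chromosome 1, 25986449 to 25994314, 7 peaks had a median of 174 bp, from 17 bp at 25993839 to 25994314 up to 541 bp at 25993262 to 25993547. At chromosome 6, 54010811 to 54017346, 6 peaks had a median of 215.5 bp, from 1 bp at 54010811 to 54011252 up to 1251 bp at 54015938 to 54016321.

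Of the 4 loci with 5 overlapping peaks, 3 had close summits. The locus at chromosome 2, 79871276 to 79874972, had a median distance of 30 bp, from 7 bp at 79874268 to 79874469 up to 323 bp at 79872191 to 79872450. The locus at chromosome 9, 115194979 to 115198296, also had a median of 30 bp, from 19 bp at 115197378 to 115197704 up to 439 bp at 115196230 to 115196538. At chromosome 3, 74897345 to 74902256, all 5 were nested, with a median of 44 bp, from 2 bp at 74899872 to 74900117 up to 1240 bp at 74902003 to 74902256. The fourth, at chromosome 9, 90533356 to 90538734, had the widest median, 645 bp, from 22 bp at 90533356 to 90533716 up to 2931 bp at 90535706 to 90536610. In all 13 loci at least 1 pair had summits within 22 bp.

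By the median, summits were closer in loci with a single overlapping peak than in loci with several. The 40 lone peaks, with no other overlapping ZmbZIP17 peak in their locus, had a median summit distance of 40 bp. Their lowest was 0 bp and their highest 4760 bp, and 23 of them (57.5%) lay within 50 bp. The 181 peaks in loci with 2 or more had a median of 116 bp, and 73 (40.3%) lay within 50 bp. Their partners differed in length, with medians of 547.5 bp at the lone peaks and 842 bp in the loci with several. The nested share was 57.5% in lone peaks and 58.6% in the others. Among the 18 loci with 2 to 4 peaks, the median distance per locus ran from 8.5 to 1691 bp.

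Control background moved with these measures. The 221 ZmbZIP17 summits had a median of 52.0 control tags (quartiles 42.0 and 64.0), and the 187 ZmbZIP60 summits also 52.0 (quartiles 40.5 and 67.0). The 61 other ZmbZIP17 peaks had a median of 13 (quartiles 6 and 28). The 2302 other ZmbZIP60 peaks on chromosomes had a median of 9, with quartiles far apart at 6 and 88.75. Across pairs, Spearman's rho of background with ZmbZIP60 length was 0.62 and with ZmbZIP17 length 0.15. The median ZmbZIP60 length was 249.5 bp in the 6 pairs under 20 control tags, 331 bp in 43 pairs at 20 to 40, 764.5 bp in 94 pairs at 40 to 60 and 1886 bp in 78 pairs above. The ZmbZIP17 medians in the same order were 278, 347, 339.5 and 415.5 bp. The summit distance likewise had medians of 10, 19, 112 and 353.5 bp, and the nested share was 16.7%, 27.9%, 55.3% and 82.1%. Within partners up to 500 bp, the median distances were 10, 18, 43 and 19 bp, the last from 8 pairs. Within partners over 1000 bp, they were 564 bp in 35 pairs at 40 to 60 tags and 726.5 bp in 58 pairs above. At 40 to 60 control tags the median was thus 43 bp with partners up to 500 bp and 564 bp with partners over 1000 bp.

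The ZmbZIP17 and ZmbZIP60 pull-downs differed in how many tag positions were filled. With 1 tag kept per position and strand, at most 400 tags can cover a base. ZmbZIP17 summits had 87.0 to 348 unscaled tags, a median of 68.7% of that limit, and ZmbZIP60 summits 14 to 132 tags, a median of 15.8%. The median filled share at ZmbZIP17 summits was 65.2% in the 96 pairs with summits within 50 bp and 73.7% in the 32 pairs beyond 1000 bp. The part of background, filling and tag number in the summit distance was not tested.

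**Figure D5:**
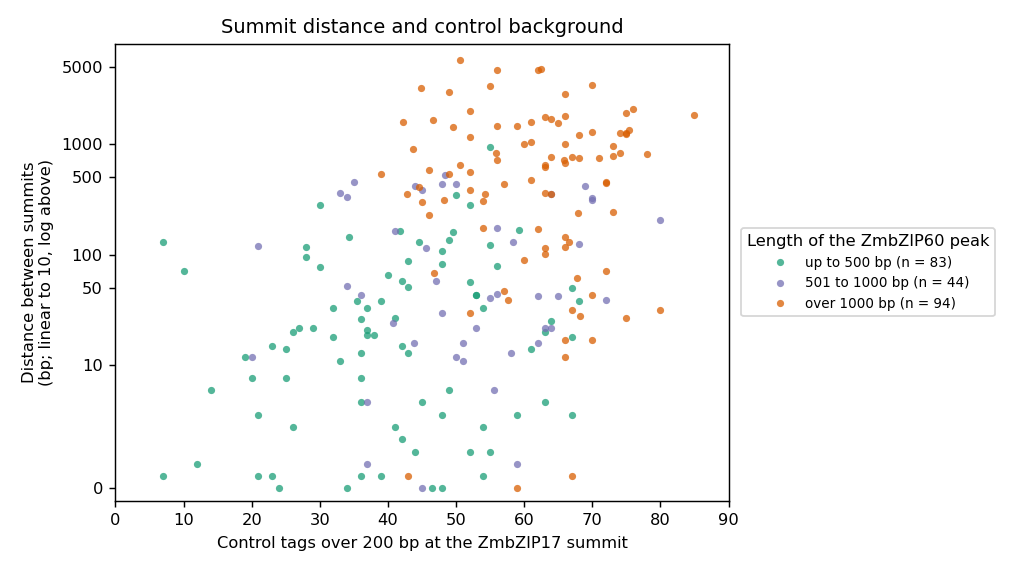
Distance between summits (bp, linear to 10 and logarithmic above) against the local control level at the ZmbZIP17 summit. The level is in tags per 200 bp, with 1 point per pair, coloured by ZmbZIP60 length. Pairs with partners over 1000 bp (orange, 94 pairs) lie at higher backgrounds than most pairs with partners up to 500 bp (green, 83 pairs).

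Only 6 of the 221 ZmbZIP17 peaks (2.71%) had under 20 control tags, against 40 of the 61 ZmbZIP17 peaks that overlapped no ZmbZIP60 peak. All 6 met a short partner, of 221 to 383 bp, and the length ratio was 0.87 to 1.35. At chromosome 1, 163878602 to 163878884, a peak of 283 bp enclosed a ZmbZIP60 peak of 274 bp with summits 1 bp apart, and folds over the control were 4.61 for ZmbZIP17 and 6.23 for ZmbZIP60, each in its own scaling. At chromosome 1, 132949797 to 132950129, the summits were 2 bp apart although the ZmbZIP17 interval began 93 bp before its partner. At chromosome 4, 115273606 to 115273878, they were 8 bp apart with the partner enclosed, and at chromosome 6, 78664757 to 78664964, 12 bp apart with the ZmbZIP17 peak nested. The remaining 2 were at chromosome 1, 76055951 to 76056254, with 71 bp between summits, and 133149980 to 133150244, with 130 bp. The ZmbZIP60 summits of the 6 had 14 to 34 tags each, which limits how well their position is known.

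The 10 pairs ranked highest by the lower of their 2 −log10 q values also had short partners. Partner lengths were 214 to 757 bp and length ratios 0.68 to 2.12. Of the 10, 3 were nested, 2 enclosed the partner and 5 were shifted. The nested ones were at chromosome 4, 115319264 and 115311046, and at chromosome 6, 78664757 (starts of the ZmbZIP17 peaks). The enclosing ones were at chromosome 1, 235237244, where the intervals differed by 4 bp at the start and 1 bp at the end, and at chromosome 2, 209804481. The shifted ones were at chromosome 4, 115258653, 115284505 and 239409741, chromosome 5, 200547694, and chromosome 2, 79961737. In the last, only 230 bp were shared and the summits were 454 bp apart, whereas the median of the 10 was 12 bp.

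The edge of the rule can be seen in the shortest shared stretches and the smallest gaps. Among the included peaks, 34 bp were shared at chromosome 6, 111097336 to 111097664, 61 bp at chromosome 2, 236163276 to 236163488, and 81 bp at chromosome 1, 235242408 to 235242650. They were followed by 108 bp at chromosome 3, 26974516 to 26975703, and 162 bp at chromosome 3, 81482791 to 81483478. Among the 61 excluded ZmbZIP17 peaks, the gap to the nearest ZmbZIP60 peak was 124 bp at chromosome 4, 156988767 to 156988977, and 146 bp at chromosome 1, 373949 to 374258. The next were 180 bp at chromosome 4, 115285192 to 115285649, 191 bp at chromosome 4, 160280712 to 160280988, and 204 bp at chromosome 4, 115319999 to 115320219.

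The excluded ZmbZIP17 peaks differed in background, length and fold, given here as values without a test. Medians of the 221 overlapping and the 61 other ZmbZIP17 peaks were 52.0 and 13 control tags, 361 and 273 bp in length, and 1.88 and 3.31 in fold enrichment. Fold is a ratio to the control, and across the overlapping pairs its Spearman's rho with background was -0.94. The difference in fold therefore cannot be read apart from that in background, nor as a difference in binding strength. At 20 or more control tags, 215 overlapping peaks had a median length of 375 bp and 21 others one of 273 bp. Summits in the outer 10% at either end of the peak were found in 31 of the 221 (14.0%) and in 5 of the 61 (8.20%). The 31 had a median length of 672 bp and a median summit distance to the partner of 306 bp.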

How the data were processed

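The data are 9 chromatin immunoprecipitation libraries in 3 groups of 3. The tools named in the submitters' processing notes are BWA, bedtools, MACS2 and Trimmomatic (0.36). Per the file headers, the authors merged the libraries of each group and called peaks with MACS2 (2.1.0.20150420) against the merged vector control, at a q cutoff of 0.05, with a tag extension of 200 bp and the larger dataset scaled down. The merged ZmbZIP60 input is named with the numbers 1 and 3 and the ZmbZIP17 input with 1, 2 and 3. Whether a ZmbZIP60 library was left out is not stated.

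Per the file headers, the deposited pileup is a signal of extended tags at the summit, the deposited fold is a ratio to the local control, and the deposited −log10 q values come from MACS2. The deposited −log10 p values were not used. The ratio was taken to have 1 added to both terms, so control tags were recovered as (pileup + 1)/fold − 1, divided by the control's scaling and rounded to 2 decimals. They are a local control level in tags per 200 bp. Some are fractional, so they are not always a count of tags at the summit. Unscaled ZmbZIP17 tags are the pileup divided by its scaling.

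Overlaps were computed in Python 3.11.15 with pandas 2.3.3 and checked with bedtools 2.31.1, which found the same 221 peaks. The geometry steps were tested on simulated data. Each ZmbZIP17 peak was paired with the ZmbZIP60 peak of the longest shared stretch, and ties went to the nearer summit. Loci join overlapping ZmbZIP17 peaks at most 10000 bp apart. Regions were named by rules: loci with 5 or more peaks, extremes of summit distance, length ratio and shared stretch, multiple overlaps, low background, and the 10 highest joint significances. Intervals are at 95%, cover counting error only and treat neighbouring peaks as independent, which they are not. The members, rules and classes were chosen with earlier results of these data known.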

Additional observations from a re-analysis of the deposited data

How the results depend on the processing

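No paired analysis was possible because the peaks were called on merged libraries and carry no replicate number, and for the same reason no replicate could be left out. Of 34 alternatives over 6 results, 23 stayed within 1.5 times the count or within the 95% interval of the value reported. Those intervals treat neighbouring peaks as independent. The number of overlapping peaks was 115 with a reciprocal overlap of 50% and 139 with both peaks at a −log10 q of 3 or more, against 221. The loci numbered 122 when joined at 1000 bp, against 71. At a −log10 q of 3 or more the median length ratio was 0.777 and the nested share 49.6%. Counted once per ZmbZIP60 peak, an alternative chosen after seeing the data, the median summit distance was 43 bp and the ratio 0.773. The nested share was 66.1% with a tolerance of 10 bp at each end and 82.4% with 50 bp, by the looser definition. The share under a background split was 0.905% at 10 and 22.2% at 40 control tags. The cause of the other differences was not tested. The summit distance stayed between 43 and 108 bp over all its alternatives. Tag number may limit how well summit positions are known, with a median of 63.0 tags at ZmbZIP60 partner summits and 275 at ZmbZIP17 summits. The filling of tag positions, a median of 68.7% at ZmbZIP17 summits, may limit them too. Neither was tested.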

Other observations

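The spans of the 71 loci also held peaks that met none of the other list. There were 16 such ZmbZIP17 peaks in 5 loci and 40 such ZmbZIP60 peaks, while 60 of the 71 loci held no ZmbZIP60 peak without a ZmbZIP17 partner. In the 40 loci with a single overlapping peak this was fixed in advance, since the span was that peak's own interval. The chromosome 4 locus at 115311046 to 115348466 held 7 of the 16 ZmbZIP17 peaks, and the chromosome 2 locus at 79934090 to 79977161 held 8 of the 40 ZmbZIP60 peaks.

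Several loci lay near each other. Joined at 100 kb, the 71 loci gave 58 runs, and 6 of these runs held 2 or more loci. On chromosome 2, 79823393 to 79977161, 4 loci held 27 overlapping ZmbZIP17 peaks. On chromosome 4, 115211868 to 115348466 and 160255619 to 160316742 held 25 each, in 3 loci each. On chromosome 9, 61923315 to 61993348, 5 loci held 7 peaks with a median summit distance of 824 bp.

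ZmbZIP17 peaks lay mostly in the middle of chromosomes, whether or not they overlapped a ZmbZIP60 peak. Position was measured against the last position listed in either peak list. Of the 221 overlapping peaks, 147 (66.5%) lay between 25% and 75% of the chromosome, and 43 of the 71 loci (60.6%) did. The shares were 67.2% of the 61 other ZmbZIP17 peaks and 39.7% of the 2302 other ZmbZIP60 peaks on chromosomes.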
